A study of Mus musculus with 11 samples.

Results

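The response described here is that of splenic B cells of NOD mice to antibody against their surface IgM, chosen by sample label as 2 arrays of stimulated cells and 3 arrays of unstimulated cells, 5 of the 11 arrays of the study. NOD (NOD/ShiLtJ) is an inbred strain that develops autoimmune diabetes. The mice were females aged 6 weeks, and B cells were taken from 3 lots of 7 to 8 pooled spleens and purified by magnetic removal of other cells. Cells of each lot were cultured for 2 h, either in complete RPMI medium alone or with 10 µg/ml of goat F(ab')2 fragments against mouse IgM. The other 6 arrays hold B cells of NR4 (NOD.NOR-Chr4/DvsJ), a strain on the NOD background with a chromosome 4 segment of NOR origin, handled in the same way, with 3 arrays per culture. They enter here through the estimate of spread and one comparison of responses. Every array measured a pool of mice, so the spread is that between pools, and the cultures with and without antibody came from the same lots.

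The B cell receptor is a membrane immunoglobulin held with the signalling chains CD79A and CD79B. Cross-linking it activates the kinases LYN, SYK and BTK, from which calcium and NFAT, protein kinase C and NF-kB, and the RAS and MAP kinase branches follow. Within the first hours, resting B cells transcribe immediate-early transcription factors of the EGR, FOS and NR4A families, Myc, chemokines that draw T cells, and genes that damp the signal again.

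Values are RMA signals taken as log2, centred for every probe set on its median over the 11 arrays. A value of 0 is thus the middle array and not absence of signal, and differences between arrays are given, not levels. A change means stimulated minus unstimulated, and a gene is called to have risen or fallen when its limma adjusted p (Benjamini-Hochberg, over all 18193 genes tested) lies under 0.05. The 3' minus 5' difference of the control transcripts, a sign of RNA or labelling quality, was higher in both stimulated NOD arrays than in the 3 unstimulated ones. For actin it was 0.19 and 0.17 against -0.03 to 0.0002, and for Gapdh 0.24 and 0.10 against -0.16 to 0.01. Its part in the results was not tested. NR4 anti-IgM replicate 1 stood apart from all other arrays in both controls, at 0.86 and 1.05. Without it, 17 NOD genes rose and 4 fell, and 17 of the 21 genes called with all arrays were among them.

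With all arrays, 18 genes rose in NOD cells after anti-IgM (0.0989% of those tested) and 3 fell (0.0165%). The 18 include the chemokine gene Ccl4, the cytokine gene Il10, the signal regulators Rgs1, Dusp4 and Map3k8, and the transcription factors Egr2, Atf3, Rel, Irf4, Gfi1 and Ahr. Icam2, Nxpe2 and Edaradd fell. In each of the 21 genes both stimulated arrays lay outside the range of the 3 unstimulated arrays, with a smallest gap of 0.64. Such a separation was common, since 8.27% of all genes had both stimulated arrays above and 12.0% had both below the unstimulated ones. At an unadjusted p under 0.05 (limma) stood 416 genes with higher values (2.29%) and 521 with lower values (2.86%), together 937 where 910 are expected if no gene changed. The median change over all genes was -0.02 and the median SE was 0.16. Of 47 genes with a change of at least 2-fold, 35 were higher and 12 lower, and 14 of the 47 passed. The fit took the arrays as independent, since no label ties an array to its lot, and fits with the replicate number as a block called other numbers of genes, given with the limits. The counts also depend on single arrays. Without NOD unstimulated replicate 1, 2 or 3, 3, 3 and 4 genes passed, and without NOD anti-IgM replicate 1 or 2, 3 and 0. Without NR4 unstimulated replicate 1 or 2 the counts were 10 and 12, and with the 5 NOD arrays alone no gene passed (limma, 1178 at an unadjusted p under 0.05).

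**Figure D1:**
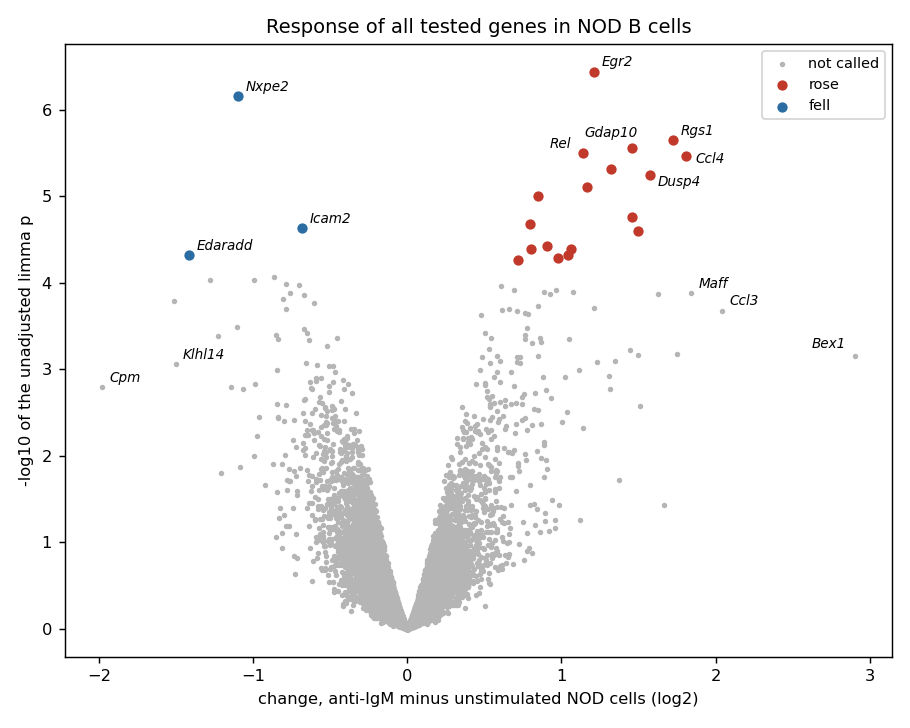
Change of each of the 18193 tested genes in NOD B cells (log2, x axis) against the -log10 of its unadjusted limma p (y axis, a log scale), with the 18 genes that rose in red, the 3 that fell in blue and genes not called in grey. Called changes run from 0.68 in size upward, while larger changes such as that of Bex1 (2.90) lie lower because their arrays spread more.

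The secreted factors held the largest called rise. Ccl4 encodes MIP-1 beta, a chemokine that attracts T cells and monocytes. Its values were -0.48, -0.83 and 0.00 in the unstimulated arrays and 1.39 and 1.36 in the stimulated arrays. The stimulated pair was tight and more than 1 log2 unit above the highest unstimulated array, with a change of 1.81 (SE 0.20, limma adjusted p = 0.0103), or 3.51-fold. Ccl3, which encodes the related MIP-1 alpha, lies next to Ccl4 in the gene order of chromosome 11, and the annotated spans of these neighbours overlap. It stood at -0.42, -0.69 and 0.39 against 1.71 and 1.89. That change was larger than Ccl4's, at 2.04, but the unstimulated arrays were more scattered (SE 0.36) and it was not called (limma adjusted p = 0.0848). Il10, which encodes an anti-inflammatory cytokine that B cells can secrete, had values of -0.73, -0.66 and -0.43 without and 0.58 and 1.12 with anti-IgM. The groups did not overlap, and Il10 rose by 1.46 (SE 0.19, limma adjusted p = 0.0291). Ccl4 and Il10 were the called members among 18 chemokine and cytokine genes measured, where 0.0989% of all genes rose. At an unadjusted p under 0.05 (limma), 3 of the 18 were higher and 2 lower, against 2.29% and 2.86% of all genes. Both stimulated arrays lay above the unstimulated ones in 3 and below in 3, against 8.27% and 12.0% of all genes. Il12a, the p35 chain shared by IL-12 and IL-35, had the lowest change of the list at -1.06 (SE 0.25, limma adjusted p = 0.260), and Ccl5, Tnf and Il6 stood at 0.78, 0.29 and 0.18, uncalled. The median of the list was 0.18.

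Single genes that limit receptor and kinase signals, Rgs1 and Dusp4, rose as well. Rgs1, a GTPase-activating protein that shortens signalling by chemokine receptors, was at -0.36, -0.36 and 0.00 unstimulated and at 1.43 and 1.54 stimulated. No arrays overlapped, and its change was 1.73 (SE 0.18, limma adjusted p = 0.0103), 3.31-fold. Among the 9 RGS genes measured it was the called one. Rgs13, another RGS gene of B cells, followed at 1.21 (SE 0.21, limma adjusted p = 0.0844), and the other 7 lay between -0.21 and 0.23, with a list median of 0.02. At an unadjusted p under 0.05 (limma), 2 of the 9 were higher and 0 lower, against 2.29% and 2.86% of all genes. Both stimulated arrays lay above in 3 and below in 3, against 8.27% and 12.0% of all genes. Dusp4 encodes a nuclear phosphatase that inactivates MAP kinases. Its values were -0.19, 0.00 and -0.39 against 1.60 and 1.16, well apart although the stimulated pair differed by 0.44, and it rose by 1.58 (SE 0.18, limma adjusted p = 0.0130). Of the 17 DUSP, Sprouty and SPRED genes, Dusp4 alone was called. Spry1, an inhibitor of RAS and MAP kinase signalling, was close in size at 1.49 (SE 0.31, limma adjusted p = 0.172), while Dusp6 and Dusp7, phosphatases for cytoplasmic ERK, were both at -0.61. At an unadjusted p under 0.05 (limma), 4 of the 17 had higher and 2 lower values, against 2.29% and 2.86% of all genes. In 9 of the 17 both stimulated arrays lay above the unstimulated ones and in 2 below, against 8.27% and 12.0% of all genes. The list median was 0.15.

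Genes of 2 kinases of the MAP kinase families were also called. Map3k8 on chromosome 18 encodes TPL2, which feeds signals of NF-kB activating receptors into the ERK branch. It stood at -0.39, -0.32 and -0.18 without and at 0.61 and 0.76 with antibody. The arrays were apart by 0.79, and the gene rose by 0.98 (SE 0.15, limma adjusted p = 0.0466). Mapk6, which encodes the atypical kinase ERK3, had the smallest called rise, from -0.23, -0.13 and -0.17 to 0.51 and 0.57, a change of 0.72 (SE 0.11, limma adjusted p = 0.0473) or 1.65-fold. All 4 probe sets of Mapk6 pointed the same way, with changes of 0.77, 0.70, 1.05 and 0.68.

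Among transcription factors, Egr2 had the smallest p of all genes. It encodes a zinc finger factor induced through antigen receptors that restrains later lymphocyte activation. Egr2 was at -0.11, -0.29 and -0.05 in unstimulated cells and at 0.99 and 1.14 in stimulated cells. Both groups were narrow and did not overlap, and Egr2 rose by 1.21 (SE 0.11, limma adjusted p = 0.00634), with both of its probe sets called, at 1.06 and 1.36. Atf3, a stress and growth signal induced factor of the CREB family, went from 0.00, -0.43 and -0.17 to 1.23 and 1.03 and rose by 1.32 (SE 0.15, limma adjusted p = 0.0126). Rel encodes c-Rel, the NF-kB subunit needed for B cell growth after receptor engagement. Its values of -0.09, -0.10 and 0.00 against 1.03 and 1.13 were among the tightest, and it rose by 1.14 (SE 0.12, limma adjusted p = 0.0103). Gfi1, a zinc finger repressor, rose by 1.17 (SE 0.14, limma adjusted p = 0.0160), from 0.00, -0.17 and -0.17 to 1.01 and 1.10. Ahr, the ligand-activated aryl hydrocarbon receptor, rose by 1.06 (SE 0.15, limma adjusted p = 0.0440), from -0.24, -0.12 and -0.27 to 0.81 and 0.90.

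Irf4, which directs class switching and plasma cell differentiation, was at -0.15, -0.01 and -0.22 without and at 0.68 and 0.76 with anti-IgM. It rose by 0.85 (SE 0.10, limma adjusted p = 0.0179), but its probe sets disagreed in size. One changed by 1.40 (SE 0.14) and passed by itself, and the other changed by 0.30 (SE 0.10) and did not, so the value of the gene is a middle of unequal measurements.

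The sequences before the starts of 4 of these genes are shown because their RNAs moved together at 2 h. They are the 4 largest called rises among genes that the RefSeq promoter table for GRCm38.p6 holds, passing over a predicted gene, and each is the 250 bases upstream of the start, 5' to 3' on the strand of the gene. Capitals mark matches to the motifs searched on both strands, and positions count back from the start.
Gdap10, chr12:32823866-32824115, plus strand: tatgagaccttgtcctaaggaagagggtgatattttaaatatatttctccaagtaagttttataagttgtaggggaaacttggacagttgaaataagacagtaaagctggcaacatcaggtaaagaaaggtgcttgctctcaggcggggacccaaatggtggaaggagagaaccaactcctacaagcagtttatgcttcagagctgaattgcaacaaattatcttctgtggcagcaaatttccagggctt
Atf3, chr1:191183334-191183583, minus strand: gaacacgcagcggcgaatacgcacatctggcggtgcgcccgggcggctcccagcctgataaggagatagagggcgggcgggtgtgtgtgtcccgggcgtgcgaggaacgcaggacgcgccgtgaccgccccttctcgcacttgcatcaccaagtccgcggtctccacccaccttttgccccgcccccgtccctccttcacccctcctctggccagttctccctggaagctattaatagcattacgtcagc
Egr2, chr10:67537619-67537868, plus strand: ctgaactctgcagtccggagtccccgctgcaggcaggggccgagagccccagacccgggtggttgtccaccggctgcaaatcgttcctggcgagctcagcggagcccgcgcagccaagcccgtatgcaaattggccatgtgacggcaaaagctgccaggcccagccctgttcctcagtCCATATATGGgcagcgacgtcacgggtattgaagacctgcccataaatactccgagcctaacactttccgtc
Gfi1, chr5:107725806-107726055, minus strand: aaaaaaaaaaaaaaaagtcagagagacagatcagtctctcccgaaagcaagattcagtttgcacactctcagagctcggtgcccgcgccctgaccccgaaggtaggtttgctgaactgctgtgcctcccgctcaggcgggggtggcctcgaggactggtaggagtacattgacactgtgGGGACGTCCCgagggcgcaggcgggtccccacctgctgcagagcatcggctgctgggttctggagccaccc

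The capitals in Egr2 are a CArG box, the sequence bound by serum response factor, at -72 to -63, and those in Gfi1 are an NF-kB site at -71 to -62. The Gdap10 and Atf3 windows held none of the motifs. Over the 12 risen genes found in the table, the NF-kB site occurred upstream of Gfi1 and Rel, the CArG box upstream of Egr2, and the AP-1 motif TGANTCA upstream of Prss23. Of all 27025 promoters of the table, 6.99% held the NF-kB site, 1.41% the CArG box and 6.85% TGANTCA. The CRE TGACGTCA (1.62% of all promoters), the EGR motif GCGTGGGCG (0.555%) and the E-box CACGTG (6.03%) were upstream of 0 of the 12. A match is a match of letters in this window and no measure of binding.

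The immediate-early list as a whole had the highest median change of the 22 lists. Of its 27 members, Egr2 and Atf3 rose, 0 fell and 25 were not called. At an unadjusted p under 0.05 (limma), 17 of 27 had higher values and 0 lower, and 17 had both stimulated arrays above the unstimulated ones, against 2.29% and 8.27% of all genes. The median change was 0.51. Several uncalled members had larger changes than Egr2. Maff, a small MAF protein, was at 0.00, -0.62 and -0.29 against 1.75 and 1.32, a change of 1.84 (SE 0.31, limma adjusted p = 0.0695). Myc, the regulator of growth and ribosome production, was at 0.00, -0.26 and -0.60 against 1.34 and 1.34, a change of 1.63 (SE 0.27, limma adjusted p = 0.0695). In both, the stimulated arrays were clear of the unstimulated ones, which were scattered. Nr4a1, the orphan receptor Nur77 used as a reporter of antigen receptor signals, changed by 1.45 (SE 0.30, limma adjusted p = 0.158), and Fosb by 1.35 (SE 0.29). Fos stood at 0.71 (SE 0.13, limma adjusted p = 0.0848), and Egr1, a classic early target, at 0.27 (SE 0.09, limma adjusted p = 0.696). Jun, Jund, Fosl1 and Srf lay between -0.11 and -0.07.

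**Figure D2:**
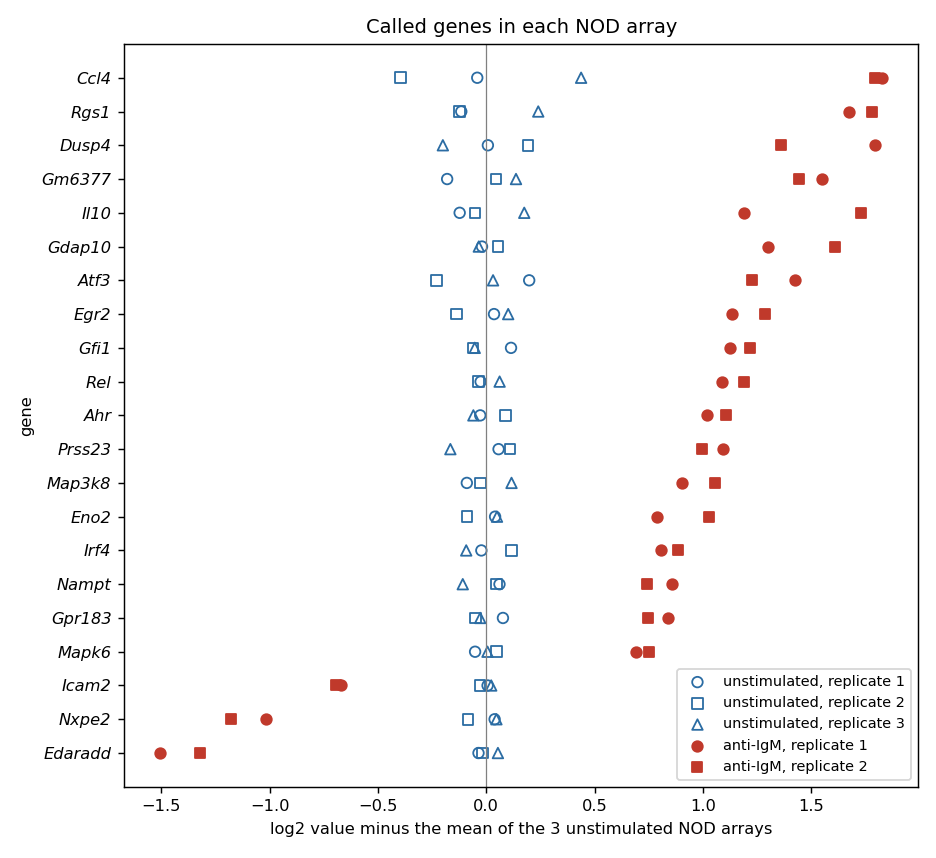
Values of the 21 called genes in each NOD array (log2, minus the mean of the 3 unstimulated arrays, x axis), one gene per line in order of change, with open symbols for unstimulated and filled symbols for stimulated arrays. In every gene both filled symbols lie on one side of all open symbols, from Ccl4 at the top (change 1.81) to Edaradd at the bottom (-1.41).

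Metabolic genes among the called ones were Nampt and Eno2. Nampt encodes the rate-limiting enzyme of NAD salvage. Its arrays read -0.06, -0.07 and -0.23 against 0.74 and 0.62, without overlap, and it rose by 0.80 (SE 0.12, limma adjusted p = 0.0440), with probe sets at 0.87, 0.84 and 0.38. Gdap10, a non-coding gene, lies inside the span of Nampt on the same strand in the RefSeq annotation, so their transcripts may not be told apart in full. Gdap10 was at -0.67, -0.59 and -0.68 against 0.66 and 0.96 and rose by 1.45 (SE 0.16, limma adjusted p = 0.0103). Eno2 encodes a glycolytic enolase known from neurons, and it went from -0.01, -0.14 and 0.00 to 0.74 and 0.98, a rise of 0.91 (SE 0.13, limma adjusted p = 0.0440). The 15 other genes of glucose uptake and glycolysis that were listed and measured had 0 called members and a median of 0.22. Of these, 13 had positive changes, where 44.3% of all genes did, led by Hk2, the inducible hexokinase, at 0.51 (SE 0.12, limma adjusted p = 0.244). The mean of the 15 was 0.31 and 0.06 in stimulated replicates 1 and 2, and -0.08 to 0.09 in the unstimulated arrays. Stimulated replicate 2 thus lay within the unstimulated range. The means over all genes also differed, at 0.05 and -0.05 in the stimulated and 0.07, -0.01 and -0.002 in the unstimulated arrays. These offsets are not taken out of the list means, so an overlap of list means does not show that a list was unshifted.

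Migration and adhesion receptors moved in both directions. Gpr183, or EBI2, guides activated B cells to the outer follicle along oxysterol gradients. It was at -0.08, -0.20 and -0.18 against 0.68 and 0.59, apart by 0.67, and rose by 0.79 (SE 0.11, limma adjusted p = 0.0318). Icam2, a ligand of the integrin LFA-1, was at 4.04, 4.0 and 4.05 unstimulated and at 3.36 and 3.34 stimulated. The groups are narrow and apart, and Icam2 fell by 0.68 (SE 0.09, limma adjusted p = 0.0330), a 1.60-fold decrease measured by 1 probe set. Its values near 4 arise because the 6 NR4 arrays lay far lower, between -0.25 and 0.00, and the probe set is centred over both strains. The fall is lost when the arrays are quantile normalized once more, with a change of 0. Icam2 holds rank 2 from the top in each of the 5 NOD arrays, and that step gives every array the same value for the same rank, here 2.79. Of the 15 receptors listed, Gpr183 and Icam2 were the called ones, where 0.0989% of all genes rose and 0.0165% fell. At an unadjusted p under 0.05 (limma), 3 of the 15 were higher and 3 lower, against 2.29% and 2.86% of all genes. Both stimulated arrays lay above the unstimulated ones in 5 and below in 4, against 8.27% and 12.0% of all genes. S1pr3, a sphingosine phosphate receptor of marginal zone B cells, stood at 0.78 (SE 0.14, limma adjusted p = 0.0876), and Ccr7, Cxcr5, Cxcr4 and S1pr1 at 0.32, 0.28, 0.07 and -0.19.

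The remaining called genes are less studied in B cells. Nxpe2, a member of the neurexophilin-like family, was at 0.10, -0.02 and 0.11 against -0.95 and -1.11 and fell by 1.10 (SE 0.10, limma adjusted p = 0.00634). This value is the middle of unequal probe sets, one with a change of -2.22 (SE 0.18) and one with 0.03 (SE 0.12). Edaradd, the adaptor of the ectodysplasin receptor, went from 0.22, 0.24 and 0.31 to -1.25 and -1.07 and fell by 1.41 (SE 0.21, limma adjusted p = 0.0462), the largest called decrease. Of its 5 probe sets, 3 lay between -2.18 and -1.64 and the others at -0.38 and -0.28. Prss23, a secreted serine protease, was at 0.00, 0.05 and -0.22 against 1.04 and 0.94 and rose by 1.05 (SE 0.16, limma adjusted p = 0.0462), with probe sets at 1.13, 1.74 and -0.12. Gm6377, a predicted gene on chromosome X, rose by 1.50 (SE 0.21, limma adjusted p = 0.0331), from -0.32, -0.09 and 0.00 to 1.41 and 1.31. Its only probe set ends in _x_at and did not pass among probe sets (limma adjusted p = 0.0697). The gene is therefore absent when such probe sets are left out.

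Probe sets tested one by one, 45037 in all, gave 14 that rose and 6 that fell, and these covered 12 of the 21 genes. The others include 1 of the 5 probe sets of Nfatc1, the NFAT factor induced in activated lymphocytes, at 1.12 (SE 0.14, limma adjusted p = 0.0414). As a gene Nfatc1 stood at 0.77 (SE 0.15, limma adjusted p = 0.128). Single probe sets of Homer1 (1.01), Pik3cg, a phosphoinositide 3-kinase catalytic subunit (-1.01), Cep97 (-1.23) and Bcl7a (-1.35) also passed, while the values of those genes did not.

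Larger but more scattered changes stayed uncalled. In all, 155 uncalled genes changed by more than 0.68, the smallest called change. Bex1, a small adaptor-like protein gene on chromosome X, had the largest of all, with -1.75, -1.44 and -0.14 unstimulated and 2.37 and 1.22 stimulated. The groups did not overlap, but each spread by more than 1 log2 unit, and the change of 2.90 (SE 0.61) had a limma adjusted p of 0.172. Gpr176, an orphan receptor, was at 1.75 (SE 0.36, limma adjusted p = 0.172). In the other direction, Cpm, a membrane carboxypeptidase, was at 0.52, 0.23 and 0.74 against -1.16 and -1.81, a change of -1.98 (SE 0.46, limma adjusted p = 0.256). Slc14a1, a urea transporter, stood at -1.51 (SE 0.26, limma adjusted p = 0.0774), Klhl14, an adaptor of ubiquitin ligases, at -1.50 (SE 0.32) and Lrrk2, a kinase linked to Parkinson's disease, at -1.28 (SE 0.21, limma adjusted p = 0.0695). Sertad4, Pxdc1, Tmem26 and Ms4a4d lay between -1.23 and -1.10.

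No gene of the receptor pathway itself was called. Of 26 genes of the receptor complex and proximal signalling, 17 had negative changes, where 55.7% of all genes did, and the median was -0.16. At an unadjusted p under 0.05 (limma) 0 were higher and 3 lower, against 2.29% and 2.86% of all genes. Those 3 were Rasgrp3, a diacylglycerol-activated RAS exchange factor, at -0.87 (SE 0.14, limma adjusted p = 0.0695), the receptor chain gene Cd79b at -0.56 (SE 0.15) and the kinase gene Syk at -0.41. In 10 of the 26 both stimulated arrays were below the unstimulated ones, against 12.0% of all genes. The mean of the 26 was 0.04 and -0.19 in stimulated replicates 1 and 2 and 0.03 to 0.15 in the unstimulated arrays, which overlap. Of 14 inhibitory receptors and phosphatases, again 0 were called, 2 had higher and 4 lower values at an unadjusted p under 0.05 (limma), against 2.29% and 2.86% of all genes, and the median was -0.16. The lower ones were the ITIM receptors Pecam1 (-0.96), Cd22 (-0.76), Siglecg (-0.62) and Lair1 (-0.33), and the higher ones Cd5 (0.84) and Ptpn22 (0.47). The mean of the 14 also overlapped, at -0.02 and -0.21 stimulated against -0.04 to 0.12 unstimulated. The means of the 26 and of the 14 hold the offsets between arrays given with glycolysis. Their overlap therefore does not show that these lists were unshifted.

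NF-kB genes beyond Rel showed smaller changes. Of the 16 measured, Rel rose, 0 fell, and 4 had higher values at an unadjusted p under 0.05 (limma), against 2.29% of all genes, with a median of 0.11. The others of those 4 encode inhibitors of the I-kappa-B family, namely Nfkbid at 0.76 (SE 0.24), Nfkbiz at 0.49 (SE 0.10) and Nfkbie at 0.41. Nfkbia, the prototypic feedback inhibitor, stood at 0.02 and Rela at 0.17. Of 13 NFAT and calcium genes 0 were called and the median was -0.05. Of 11 genes for RNA decay and PIM kinases 0 were called, with Zc3h12c, a relative of the RNase regnase-1, at 1.08 (SE 0.18, limma adjusted p = 0.0695). Of 12 STAT and SOCS genes 0 were called (median 0.12).

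The lists of activation surface proteins, ribosome biogenesis and stress genes had no called member (limma). Of the 18 activation surface proteins, 3 had higher and 2 lower values at an unadjusted p under 0.05, against 2.29% and 2.86% of all genes. Cd69, an early activation antigen, was at -0.17, -0.09 and 0.09 against 0.00 and 0.16, overlapping groups with a change of 0.14 (95% interval -0.09 to 0.36). Cd86 and Cd83, costimulatory and maturation proteins, stood at 0.29 (SE 0.19) and 0.22 (SE 0.10), and Slc3a2, the amino acid transporter chain CD98, at 0.73 (SE 0.16, limma adjusted p = 0.181). Cd40 lay at -0.55. Ribosome biogenesis genes, known MYC targets, had 29 positive changes of 39, where 44.3% of all genes were positive, and a median of 0.10. Both stimulated arrays were above in 10 of the 39, against 8.27% of all genes. The mean of the 39 was 0.19 and 0.0042 in stimulated replicates 1 and 2, and -0.03 to 0.03 in the unstimulated arrays. Stimulated replicate 2 thus lay within the unstimulated range. Of 21 stress genes, 4 had higher and 0 lower values at an unadjusted p under 0.05 and 8 had both stimulated arrays above, against 2.29% and 8.27% of all genes, with a median of 0.05. They were led by Ppp1r15a, a phosphatase subunit that ends translational arrest, at 0.66. The mean of the 21 stress genes was 0.14 and -0.06 in the stimulated arrays and -0.09 to -0.0004 in the unstimulated ones, which overlap. The ribosome and stress means also hold the offsets between arrays given with glycolysis, so their overlap does not show that these lists were unshifted. Cell cycle genes (23, median 0.03), lipid synthesis genes (19, median -0.04), interferon-stimulated genes (28, median 0.06), BCL2 family genes (12, median -0.01) and antigen presentation genes (16, median -0.01) also had 0 called members each (limma).

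Quiescence genes had the lowest median change of the 22 lists, -0.19. Of the 17, 0 were called, and 1 was higher and 4 lower at an unadjusted p under 0.05 (limma), against 2.29% and 2.86% of all genes. Both stimulated arrays were below in 9 of them, against 12.0% of all genes. The lower ones were Slfn2 (-0.62), Sesn1 (-0.61, SE 0.11, limma adjusted p = 0.0789), Btg2 (-0.52) and Ccng2 (-0.31). Klf2, a factor that keeps lymphocytes resting, changed by -0.78 but was not at that level. Of 19 B cell fate factors, Irf4 rose and 0 fell, and 12 had negative changes, where 55.7% of all genes did. At an unadjusted p under 0.05 (limma) 2 were higher and 3 lower, against 2.29% and 2.86% of all genes. The higher ones were Irf4 and Id2, and the lower ones included Id3, an inhibitor of E proteins, at -0.84 (SE 0.22). Prdm1 (0.32), Bcl6 (-0.24) and Pax5 (0.03) were not at that level. The list median was -0.07.

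**Figure D3:**
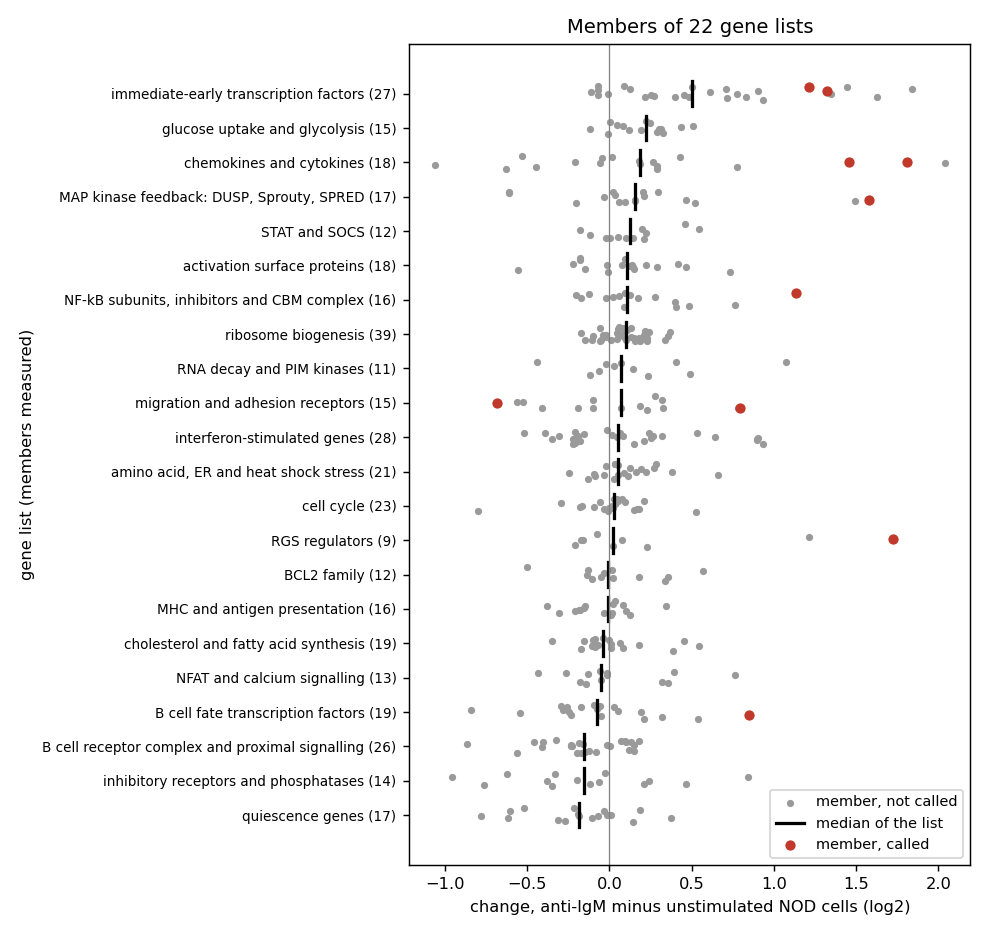
Change of each measured member of 22 gene lists in NOD cells (log2, x axis), one list per line in order of median, with called members in red, uncalled members in grey and the median as a black bar. Medians run from 0.51 for immediate-early transcription factors to -0.19 for quiescence genes.

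The label of the cells was set against markers. Of 8 B cell genes measured 0 were called (limma), and 5 had lower values at an unadjusted p under 0.05, against 2.86% of all genes. Among them were Cd37 (-0.51), Ms4a1, which encodes CD20 (-0.47), and Cd22. The mean of the 8 was 0.10 to 0.15 in the unstimulated arrays and -0.12 and -0.35 in the stimulated ones. In bulk RNA, fewer cells of a type and less of its RNA per cell cannot be told apart. Centred values give no levels, so neither the presence of B cell RNA nor the absence of other cells can be read from them. T cell, NK cell, monocyte, dendritic cell and neutrophil lists (7, 6, 6, 5 and 4 genes) had 0 called members each and medians of 0.13, 0.02, 0.06, 0.06 and -0.20. The single genes at an unadjusted p under 0.05 among those 28 were Cd14 (0.60) and Itgax (0.42), both higher, as were 2.29% of all genes. No member of the lists for follicular, marginal zone, B-1 and transitional B cells, plasma cells, erythroid cells, platelets, or endothelium and stroma was called. In the T, NK, monocyte and neutrophil lists the mean of members overlapped between stimulated and unstimulated arrays, and in the dendritic list it was 0.14 and 0.07 against -0.08 to 0.03. In the erythroid list it was lower, at -0.03 and -0.08 against -0.0011 to 0.08, as it was for the 2 transitional B cell genes, at -0.14 and -0.57 against 0 to 0.25. These list means, too, hold the offsets between arrays given with glycolysis. The part of other cells in the results was not tested.

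Against the NR4 response, which uses other arrays of other mice, the NOD changes mostly went the same way. Of the 21 genes called in NOD, 20 changed in the same direction in NR4, where 60.0% of all genes had the same sign in both strains. In 19 of the 21 the NR4 arrays did not overlap either, while all 3 stimulated NR4 arrays lay above the unstimulated ones in 5.12% of all genes and below them in 7.49%. The NR4 arrays also entered the estimate of spread on which the NOD calls rest, which favours genes with tight NR4 arrays, so these counts are no independent check of the calls. The difference of the responses was called for 0 of 18193 genes (limma, 0%), and 255 (1.40%) had an unadjusted p under 0.05, fewer than 910. Among the 21, Icam2 and Prss23 were at that level. The 21 were chosen by their NOD change, which is a part of this difference, so their differences and intervals are not free of that choice. Prss23 changed by 0.18 in NR4, with NR4 arrays of -0.10, -0.38 and 0.00 unstimulated and 0.16, 0.10 and -0.22 stimulated, which overlap. Its response differed by 0.87 (95% interval 0.41 to 1.33, limma adjusted p = 1.00). Icam2 changed by 0.09 in NR4, and the difference was -0.78 (95% interval -1.05 to -0.50, limma adjusted p = 1.00). The NR4 arrays of Icam2 lay far below the NOD arrays. Centred values hold no levels, so whether a fall could be measured in NR4 is not known. For Atf3 the interval of the difference was -0.04 to 0.87, around 0.41, and for Egr2 it was -0.31 to 0.32, around 0.01. Lrrk2, uncalled in NOD, changed by -2.15 in NR4, a difference of 0.87 (95% interval 0.25 to 1.48, limma adjusted p = 1.00). With intervals of this width, small differences between the strains were not detectable.

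**Figure D4:**
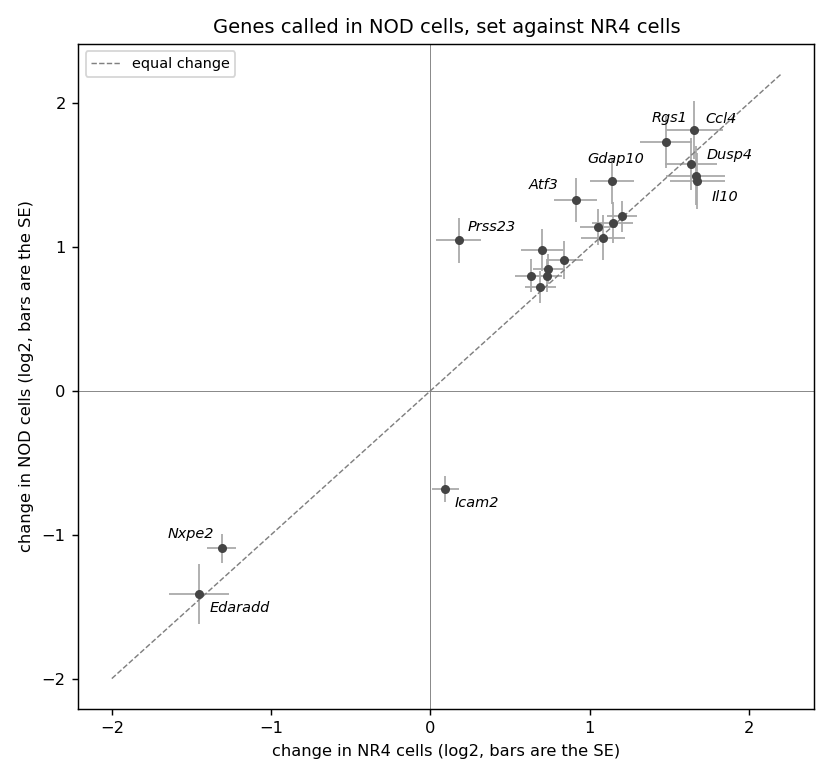
Change of the 21 called genes in NR4 cells (log2, x axis) against their change in NOD cells (log2, y axis), with bars for the SE in each strain and a dashed line of equal change. Most genes lie near the line, while Prss23 (1.05 in NOD, 0.18 in NR4) and Icam2 (-0.68 in NOD, 0.09 in NR4) lie off it. The genes were chosen by their change in NOD cells.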

How the data were processed

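Total RNA was amplified in 1 cycle, labelled with biotin and hybridized to Affymetrix Mouse Genome 430 2.0 arrays, per the labels. The deposited values are RMA signals, per the submitters' processing notes (version not given in the sources used here), taken as log2, a base no source states. Each of the 45101 probe sets has its median over arrays at 0, which shows that the deposited log2 values are centred, and no level or detection call is left. Column medians were -0.0011 to 0.022. No 2 arrays held identical values. Names came from the platform annotation (34945 probe sets with 1 symbol, 932 with several, 9160 with none listed, 64 controls), and 99.4% of those with 1 symbol matched RefSeq by Entrez identifier. A gene's value is the median of its probe sets, 49.5% of genes having more than 1.

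In R 4.3.3, limma 3.58.1 fitted a mean for each group, using the 11 arrays together (residual degrees of freedom 7), with two-sided tests and Benjamini-Hochberg adjustment. Precision is limited by how few arrays there are. The steps were tested on simulated data. The genes named are all called genes, per list the called and up to 4 uncalled members of smallest p, the 8 largest uncalled changes each way with separate arrays (1810046K07Rik was passed over), and 8 genes named whatever their values; other list members given with a value were picked after values were seen. The members, gene lists and rules were chosen with earlier results of these data known. Promoters are from the RefSeq table (12 of the 18 risen genes found), using for each gene the start with most other starts of that gene nearby, and none from chromosome 18.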

Additional observations from a re-analysis of the deposited data

Results flagged for a closer look

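Probe set 1446055_at, for which the annotation lists no gene and which therefore entered no gene value, rose in NOD cells by 1.08 (SE 0.14, limma adjusted p = 0.0414 over probe sets). Its values were -0.09, -0.30 and -0.29 in the unstimulated and 0.81 and 0.89 in the stimulated arrays, which do not overlap. It is given because it is a signal outside the gene values on which the comparisons rest.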

How the results depend on the processing

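The count of 21 called genes in NOD cells depended on the arrays and settings. It was 0 with the 5 NOD arrays alone, 9 after quantile normalization (7 higher and 2 lower, 8 of them among the 21) and 94 with array weights (68 higher and 26 lower, all 21 among them). Leaving out single arrays, it ranged from 0 to 25. Egr2 and Nxpe2 passed in 4 of the 5 settings without a NOD array, Ccl4 in 2, Atf3 and Rgs1 in 1, and the other 16 in 0. With the replicate number as a replicate block 52 genes passed (36 higher, 16 lower, all 21 among them), and with the number within strain as a replicate block 2 did (1 of them among the 21). The labels do not say that a number marks a lot, no stimulated NOD array is numbered 3, and the deviations of the 2 stimulated NOD arrays are mirror images. The correlations of same-numbered NOD arrays, 0.63 and 0.12, therefore neither establish nor refute pairing. The cause of these shifts was not tested. The mean of probe sets gave 19 genes, single probe sets 20, the lowest-numbered probe set 14, and leaving out probe sets ending in _x_at or _s_at 19. With its lowest-numbered probe set Nxpe2 changed by 0.029 (limma adjusted p = 1.00), and apart from this and the quantile value of Icam2, no called gene changed direction in any setting run. The difference between the strains' responses had 0 called genes in every setting, the replicate block included. The filter on dim genes could not be run, since centred values hold no levels.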
